A study of Mus musculus with 8 samples.

Results

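Interferon receptors and the STAT and IRF transcription factors downstream of them were followed in Ly6C-high myeloid cells from irradiated and sham-treated mouse tumours. The set holds 9 genes of the 22180 measured, chosen by name and not by their values. They are the receptor chain genes Ifnar1, Ifnar2 and Ifngr1, the genes Stat2 and Irf9, and the IRF genes Irf1, Irf2, Irf7 and Irf8. Each was found in the array table as a row annotated to that symbol alone, and where a symbol had several rows, the row with the highest mean was used. RNA came from cells sorted as CD45+ CD11b+ Ly6Chi, which the labels call inflammatory monocytes or macrophages, out of subcutaneous tumours of female C57BL/6 mice aged 8 weeks. In 4 mice the tumour had received 20 Gy, an ablative dose, and in the other 4 it had received a sham treatment; both groups were harvested 1 day later. All 8 mice carried tumours grown for 14 days from a single cell line, number 152, whose mice of origin had the alleles Pdx1-Cre, Trp53LSL-R172H/+ and KrasLSL-G12D/+. Pdx1 drives Cre in the pancreas, whereas these tumours grew under the skin from 1 line, which limits them as a model of pancreatic cancer.

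Type I interferons bind a receptor made of the IFNAR1 and IFNAR2 chains, and interferon gamma binds one made of IFNGR1 and IFNGR2. Both receptors work through JAK kinases that phosphorylate STAT proteins. After type I interferon, STAT2 joins a further STAT protein and IRF9 in a complex called ISGF3, which binds the interferon-stimulated response element (ISRE) of antiviral genes. STAT dimers formed after interferon gamma bind the gamma-activated site (GAS). IRF7 is itself made after interferon and drives further interferon production, so that it amplifies the response, and IRF8 is needed for the development of monocytes and dendritic cells.

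Each mouse gave 1 array, and levels are the authors' RMA values on a log2 scale, on which a difference of 1 is a doubling. The array medians lay between 4.68 and 4.73, and the arrays correlated with one another at 0.976 to 0.988 across all rows. Of the genes that define the sort, Ptprc (CD45) averaged 11.62 ± 0.09 in irradiated and 11.66 ± 0.05 in sham mice, and Itgam (CD11b) 11.12 ± 0.12 in irradiated and 10.94 ± 0.18 in sham mice (SD, n = 4 each). Ly6c2 (Ly6C) lay between 10.77 and 12.45 in irradiated and between 11.03 and 11.98 in sham mice. The mean of 13 neutrophil markers ran from 6.00 to 7.21 in irradiated and from 6.79 to 8.61 in sham mice. All 13 were lower on average in irradiated mice, beside 57.8% of all genes, but they did not run together over the arrays. The granule gene Camp was highest in sham mice 2 and 3, at 8.02 and 10.10 against 3.08 to 3.69 on the other 6 arrays. The chemokine receptor gene Cxcr2 stood at 6.95 and 7.40 in those mice and was highest in irradiated mouse 3, at 10.04. The 22 measured T and NK cell markers had mean levels of 6.75, 5.63, 5.57 and 6.72 in irradiated mice 1 to 4, and 5.64, 7.59, 7.73 and 5.98 in sham mice 1 to 4.

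Among the 9 genes, Irf7 and Stat2 stood higher on average in irradiated mice, with their highest values in irradiated mice 1 and 2. Irf7 was 1.85-fold and Stat2 1.37-fold higher on average, while the other 7 genes differed by 0.30 or less on the log2 scale. Ifngr1 was the gene with the smallest p, at 0.81 times its sham level. None of the 9 passed the threshold in limma adjusted over all genes, nor did any of the 22180 genes (0%); the smallest adjusted p of any gene was 0.545. At an unadjusted p under 0.05, limma called 1 of the 9, Ifngr1, on the lower side, against 6.07% of all genes in either direction and 4.03% on the lower side. In all 9 the groups overlapped. Of the 9, 3 were higher and 6 lower in irradiated mice with a median difference of -0.01, beside 57.8% lower and a median of -0.03 over all genes; Irf9 and Ifnar2, within 0.01 of 0, turned higher when array medians were subtracted or arrays were quantile normalized. In bulk RNA of sorted cells, fewer cells of a type and less RNA per cell cannot be told apart.

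**Figure D1:**
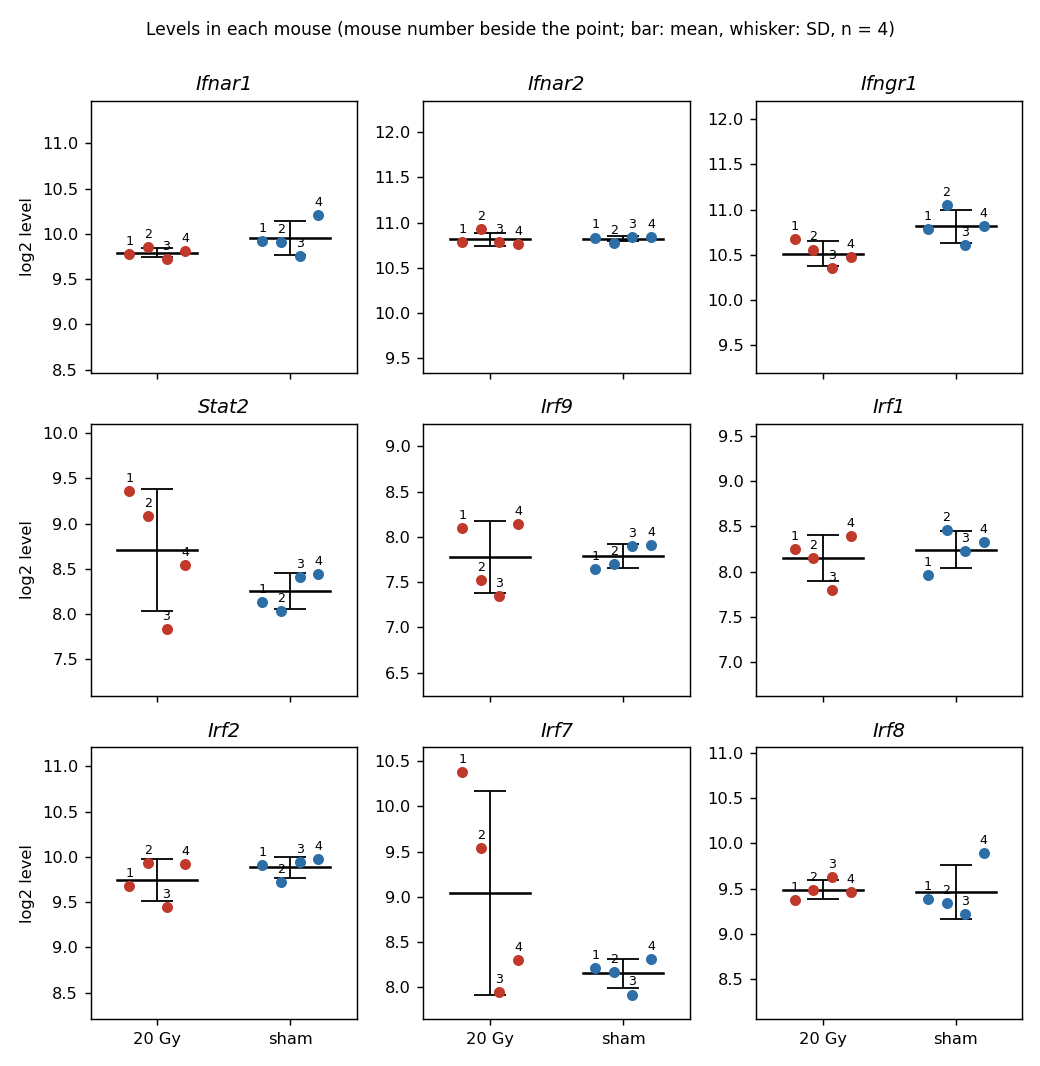
Log2 level (y axis, the same 3-unit height in each panel) of the 9 genes in each of 4 irradiated (20 Gy, red) and 4 sham mice (blue), with mouse numbers, group means (bars) and SDs (whiskers). Irf7 and Stat2 were high in irradiated mice 1 and 2, while the 8 values of Ifnar2 spanned only 0.16.

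Over the 8 arrays the receptor chain genes spanned 0.48 (Ifnar1), 0.16 (Ifnar2) and 0.69 (Ifngr1) on the log2 scale. Ifnar1, the type I receptor chain that binds TYK2, stood at 9.78, 9.85, 9.72 and 9.81 in irradiated mice 1 to 4 and at 9.92, 9.91, 9.76 and 10.21 in sham mice 1 to 4. The SD was 0.05 among irradiated and 0.19 among sham mice (n = 4 each), the groups overlapped, and only sham mouse 4 stood above 10. The difference was -0.16 ± 0.11 (SE; 95% interval -0.41 to 0.09; adjusted p = 0.857 in limma), and it was -0.07 without sham mouse 4. Ifnar2, the high-affinity chain of that receptor, stood at 10.78, 10.92, 10.79 and 10.76 in irradiated mice and at 10.84, 10.78, 10.84 and 10.84 in sham mice. The groups overlapped, and the 95% interval of the difference ran from -0.21 to 0.19. Ifngr1, the ligand-binding chain of the interferon gamma receptor, stood at 10.67, 10.56, 10.35 and 10.47 in irradiated mice and at 10.79, 11.05, 10.61 and 10.82 in sham mice. Irradiated mouse 1 lay above sham mouse 3, and the remaining 3 irradiated mice lay below every sham mouse. The difference was -0.30 ± 0.12 (SE; 95% interval -0.57 to -0.03; unadjusted p = 0.0314 and adjusted p = 0.819 in limma). A two-sided exact permutation test over the 70 assignments of the mice gave p = 0.0571, where the smallest that the design allows is 0.0286. With 1 mouse left out its unadjusted p ran from 0.0138 without sham mouse 3 to 0.0934 without sham mouse 2, and it was above 0.05 without irradiated mouse 3 or 4 or sham mouse 1, 2 or 4. Sham mouse 2, which held the highest Ifngr1, was also 1 of the 2 sham mice with high T and NK cell markers. Sham mouse 3, with the highest mean of those markers, held the lowest sham Ifngr1, at 10.61. Without sham mice 2 and 3 the Ifngr1 difference was -0.29, with an unadjusted p of 0.0615 in limma. With the T and NK cell marker mean as a covariate it was -0.28, with an unadjusted p of 0.0604. The within-array difference of Ifnar1 and Ifnar2 did not separate the groups (irradiated minus sham -0.15, two-sided exact permutation p = 0.171, 0.429 adjusted over the 3 pairs compared).

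The other receptor chains and the kinases differed by 0.28 or less on the log2 scale. Ifngr2, the signalling chain of the interferon gamma receptor, differed by 0.03 ± 0.12 (SE) and Il10rb, shared with the interferon lambda receptor, by 0.05 ± 0.15. Ifnlr1, the specific chain of the lambda receptor, stood near the array median at 4.68 ± 0.33 in irradiated and 4.96 ± 0.10 in sham mice (SD, n = 4 each). Jak1 differed by -0.09 ± 0.12, Jak2 by 0.09 ± 0.12 and Tyk2 by 0.02 ± 0.13 (SE). None of these 6 had an unadjusted p under 0.05 in limma.

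**Figure D2:**
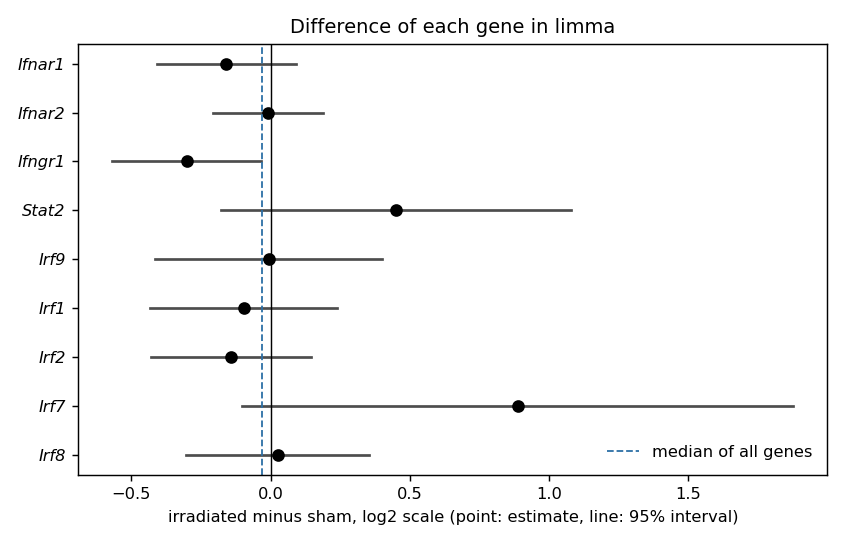
Difference of each of the 9 genes, as log2 level in irradiated minus sham mice, with its 95% interval from limma (n = 4 each); the dashed line is the median of all genes, -0.03. Only the interval of Ifngr1, -0.57 to -0.03, leaves out 0, and those of Irf7 and Stat2 are the widest.

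STAT2 and IRF9 are subunits of ISGF3, and the distance between the levels of their genes was largest in irradiated mice 1 and 2. Stat2 stood at 9.36, 9.08, 7.83 and 8.54 in irradiated mice 1 to 4 and at 8.14, 8.04, 8.41 and 8.44 in sham mice 1 to 4. Irradiated mice 1, 2 and 4 lay above every sham mouse, and irradiated mouse 3 lay below every sham mouse. The difference was 0.45 ± 0.28 (SE; 95% interval -0.18 to 1.08; adjusted p = 0.855 in limma). It was 0.74 without irradiated mouse 3, with an unadjusted p of 0.00426 and an adjusted p of 0.796, and 0.23 without irradiated mouse 1. Irf9, the DNA-binding subunit, stood at 8.10, 7.53, 7.35 and 8.14 in irradiated mice and at 7.64, 7.70, 7.89 and 7.91 in sham mice. Irradiated mice 1 and 4 lay above all sham mice and irradiated mice 2 and 3 below all of them, so that the group means were 7.78 ± 0.40 in irradiated and 7.79 ± 0.14 in sham mice (SD, n = 4 each). In irradiated mouse 2, Stat2 was thus among the highest of the 8 arrays while Irf9 was among the lowest. Irradiated mice 1 and 4 were also those with the higher T and NK cell marker means of their group, and sham mice 2 and 3, with the highest means of all, stood at 7.70 and 7.89 for Irf9. The mean of 10 tumour epithelial and stromal markers was likewise higher in irradiated mice 1 and 4, at 7.26 and 7.09 against 6.24 and 6.49. It ran from 6.05 to 7.57 in sham mice. With the T and NK cell marker mean as a covariate the difference of Irf9 was 0.10, against -0.01 without it, and neither passed. The within-array difference Stat2 minus Irf9 was 1.26, 1.56, 0.48 and 0.40 in irradiated mice 1 to 4 and between 0.34 and 0.53 in sham mice. Its group difference of 0.46 did not pass (two-sided exact permutation p = 0.286, 0.429 adjusted over 3 pairs).

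The promoters of these genes differ in the interferon motifs they hold. RefSeq promoter windows of mouse build GRCm38.p6, from 250 bases before to 50 bases after the annotated start, were found for all 9 genes, 12 windows in all, and searched on both strands for the ISRE letters GAAA, any 2 bases and GAAA again, and for the GAS letters TTCNNNGAA, where N is any base. The ISRE letters were in the windows of Stat2 and Irf2 alone among the 9 genes, against 3.99% of the 27025 genes with a window. The GAS letters were in windows of 5 of the 9 genes, Irf1, Irf2, Irf8, Ifnar1 and Ifnar2, against 9.55% of those genes. No ISRE match overlapped a GAS match. The windows of Irf7 and Stat2, whose levels spread most between mice, and of Irf1 and Irf2, whose products compete for the same DNA element, are shown 5′ to 3′ on the strand of the gene with matches in capitals.
Stat2, chr10:128270248-128270547, + strand: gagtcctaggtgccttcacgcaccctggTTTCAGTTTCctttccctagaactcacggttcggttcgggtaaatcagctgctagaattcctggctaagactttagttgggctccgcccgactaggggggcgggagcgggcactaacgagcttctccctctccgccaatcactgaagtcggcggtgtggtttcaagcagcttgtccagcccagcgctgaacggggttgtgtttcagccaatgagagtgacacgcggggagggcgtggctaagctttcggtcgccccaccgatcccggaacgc
Irf7, chr7:141266375-141266674, - strand: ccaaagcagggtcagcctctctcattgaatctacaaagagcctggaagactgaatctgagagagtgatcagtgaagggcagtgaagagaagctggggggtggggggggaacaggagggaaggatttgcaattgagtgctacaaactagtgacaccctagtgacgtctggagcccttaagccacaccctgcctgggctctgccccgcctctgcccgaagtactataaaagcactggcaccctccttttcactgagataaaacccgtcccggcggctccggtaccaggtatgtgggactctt
Irf1, chr11:53769764-53770063, + strand: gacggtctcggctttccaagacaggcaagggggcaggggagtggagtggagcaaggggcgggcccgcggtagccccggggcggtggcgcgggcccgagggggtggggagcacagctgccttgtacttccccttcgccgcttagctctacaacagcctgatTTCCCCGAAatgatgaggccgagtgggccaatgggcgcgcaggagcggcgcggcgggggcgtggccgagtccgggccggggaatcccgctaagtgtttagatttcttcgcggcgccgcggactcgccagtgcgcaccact
Irf2, chr8:46739495-46739794, + strand: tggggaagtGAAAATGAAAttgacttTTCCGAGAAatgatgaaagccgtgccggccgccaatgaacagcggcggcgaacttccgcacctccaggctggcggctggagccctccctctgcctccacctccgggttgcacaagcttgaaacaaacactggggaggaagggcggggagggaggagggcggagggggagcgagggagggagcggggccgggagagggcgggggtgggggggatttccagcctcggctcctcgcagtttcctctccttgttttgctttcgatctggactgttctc
In Stat2 the ISRE letters lie on the opposite strand, from -222 to -213 relative to the start. In Irf1 the GAS letters lie from -90 to -82, and in Irf2 the ISRE letters lie from -241 to -232 and the GAS letters from -224 to -216. Neither motif was matched in this window of Irf7 or in the windows of Irf9 and Ifngr1. Irf1 had a further window, chr11:53770223-53770522, which held neither motif and is not shown. A match is a run of letters and was not tested for binding.

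Irf7, the amplifier of the type I response, spread more than any other gene of the set. It stood at 10.38, 9.54, 7.95 and 8.30 in irradiated mice 1 to 4 and at 8.21, 8.17, 7.92 and 8.31 in sham mice 1 to 4. Irradiated mice 1 and 2 lay above every sham mouse by more than 1 on the log2 scale, and irradiated mice 3 and 4 lay within the sham range. The group means were 9.04 ± 1.13 in irradiated and 8.15 ± 0.17 in sham mice (SD, n = 4 each), a difference of 0.89 ± 0.44 (SE; 95% interval -0.10 to 1.88; unadjusted p = 0.0736 and adjusted p = 0.822 in limma). The two-sided exact permutation p was 0.229. The difference was 0.44 without irradiated mouse 1, 0.72 without irradiated mouse 2, 1.25 without irradiated mouse 3 and 1.14 without irradiated mouse 4. The SD among irradiated mice was 6.81 times that among sham mice, a ratio exceeded by 0.613% of all genes. For Stat2 that ratio was 3.35 (exceeded by 4.18%), for Irf9 2.97 (5.81%), for Ifnar2 2.29, for Irf2 2.04 and for Irf1 1.22. It was below 1 for Ifngr1 (0.75, exceeded by 64.4%), Irf8 (0.34, exceeded by 92.6%) and Ifnar1 (0.28, exceeded by 95.5%). Irradiated mice thus had the wider spread in 6 of the 9 genes, while a ratio of 1.01 was exceeded by 46.7% of all genes. Plasmacytoid dendritic cells are known for high IRF7, and their markers did not share a pattern within the irradiated group. Siglech (5.40), Klk1, Pacsin1 and Cox6a2 had their highest irradiated value in mouse 4. Tcf4 (7.93) and Spib (4.15) had theirs in mouse 1, and Ccr9 (4.94) in mouse 2. The mean of 7 such markers was 4.95, 4.92, 4.95 and 5.17 in irradiated mice 1 to 4. In sham mice 1 to 4 it was 4.79, 5.65, 6.09 and 4.91. Of the 7 markers, 4 averaged below the median of all rows. The part of these cells in the level of Irf7 was not tested.

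Genes were ranked by how closely their levels over the 8 arrays, centred on each gene's mean, followed Irf7 or Stat2, the 2 genes of the set that spanned at least 0.8. Among 12285 other genes above the median level, the closest to Irf7 were Phf11d, with a mean absolute difference of 0.21, and the predicted gene Gm5431, with 0.22. Phf11d stood at 7.92, 7.37, 6.31 and 6.03 in irradiated mice 1 to 4 and between 5.62 and 6.30 in sham mice. The closest to Stat2 were Rnf213, which encodes a ubiquitin ligase, with a mean absolute difference of 0.13, and Rasa4, which encodes a Ras GTPase-activating protein, with 0.14. Rnf213 stood at 9.92, 9.92, 8.81 and 9.36 in irradiated mice and between 8.90 and 9.10 in sham mice. All 4 genes were picked for this likeness, so their high values in irradiated mouse 1 follow from the choice.

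Irf1 and Irf2 bind the same element, Irf1 as an activator and Irf2 mostly as its antagonist. Irf1 stood at 8.25, 8.15, 7.80 and 8.40 in irradiated mice 1 to 4 and at 7.97, 8.46, 8.23 and 8.32 in sham mice 1 to 4. The lowest value was that of irradiated mouse 3 and the highest that of sham mouse 2, and the rest were mixed. Its difference was -0.10 ± 0.15 (SE; 95% interval -0.43 to 0.24; adjusted p = 0.939 in limma). Irf2 stood at 9.68, 9.93, 9.45 and 9.92 in irradiated mice and at 9.91, 9.72, 9.94 and 9.97 in sham mice, a difference of -0.14 ± 0.13 (SE; 95% interval -0.43 to 0.15; adjusted p = 0.893 in limma). Irradiated mouse 3 was the lowest here as well. The within-array difference Irf1 minus Irf2 shifted by 0.05 between the groups (two-sided exact permutation p = 0.80, also after adjustment over 3 pairs). Irradiated mouse 3 was the lowest of the 8 arrays for 6 of the 9 genes, namely Stat2, Irf9, Irf1, Irf2, Ifnar1 and Ifngr1, against 14.1% of all genes. That array was also the lowest for 4 of the 7 measured genes listed as sort markers, among them Ly6c2 and Ptprc.

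Irf8, the monocyte and dendritic cell factor, stood at 9.38, 9.48, 9.62 and 9.46 in irradiated mice 1 to 4 and at 9.39, 9.34, 9.22 and 9.90 in sham mice 1 to 4. The irradiated mice lay within the sham range, and sham mouse 4 stood apart on the high side. The difference was 0.03 ± 0.15 (SE; 95% interval -0.30 to 0.35; adjusted p = 0.984 in limma), and 0.17 without sham mouse 4. Irf8 was the only gene of the set with 2 rows; the dimmer row gave 8.06 in irradiated and 8.18 in sham mice, a difference of -0.12, and it too was highest in sham mouse 4, at 8.56. The 8 measured markers of conventional dendritic cells had their highest mean in sham mouse 4 as well, at 6.79 against 6.20 to 6.42 on the other 7 arrays, with Ccr7 at 8.05 and Batf3 at 7.98 there. Not all of them peaked in that mouse: Flt3 was highest in sham mouse 3, Zbtb46 in sham mouse 1 and Cd209a in irradiated mouse 4. The part of conventional dendritic cells in the level of Irf8 was not tested.

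**Figure D3:**
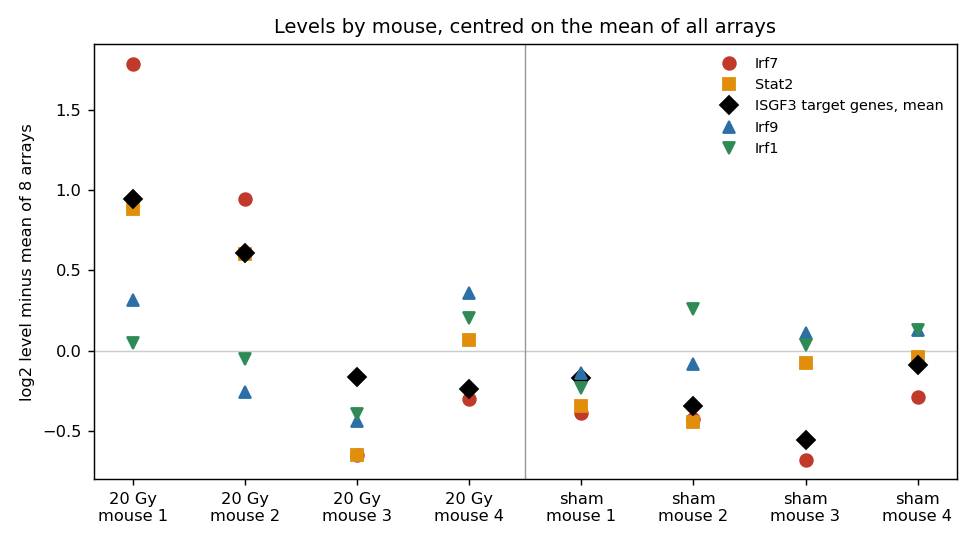
Log2 level minus the mean of all 8 arrays (y axis) in each irradiated (20 Gy, left) and sham mouse (right) for Irf7, Stat2, Irf9, Irf1 and the mean of 24 ISGF3 target genes. Irf7, Stat2 and the targets were highest in irradiated mice 1 and 2, and Irf9 was highest in irradiated mice 1 and 4.

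Known target genes of ISGF3 stood high in the same mice as Irf7 and Stat2. Of 27 symbols listed, 24 were measured. The mean of these 24 genes was 9.32, 8.98, 8.21 and 8.14 in irradiated mice 1 to 4, and 8.21, 8.04, 7.83 and 8.29 in sham mice 1 to 4. All 24 were higher on average in irradiated mice, with a median difference of 0.55 beside -0.03 over all genes. Of the 24, 6 had an unadjusted p under 0.05 in limma on the higher side, where 2.05% of all genes did, and 0 passed the adjusted threshold. In 23 of the 24 the highest 2 arrays were irradiated mice 1 and 2, as for Irf7 and Stat2, against 3.12% of all genes. The targets with the smallest p were Mx1, an antiviral GTPase (1.32 ± 0.42, SE), and Ifih1, the RNA sensor MDA5 (0.63 ± 0.23), each at an adjusted p of 0.819 in limma. Promoter windows were found for 17 of the 24 targets, and 11 of the 17 held the ISRE letters, against the 3.99% of all genes given above. This list was put together with earlier results of these arrays known, so its direction is not independent evidence.

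Targets of interferon gamma and IRF1 were listed apart. Of 19 measured genes 13 were higher, with a median of 0.14, 1 had an unadjusted p under 0.05 on the higher side, and none on the lower side. Over all genes 42.2% were higher, and 2.05% were called on the higher and 4.03% on the lower side, so 1 of 19 is near the background. That gene was Cxcl10, a T cell attractant that type I interferon also induces, at 11.55, 11.18, 10.26 and 10.42 in irradiated mice 1 to 4 and between 9.99 and 10.34 in sham mice. Gbp5, a guanylate-binding GTPase of the inflammasome response, stood 0.33 ± 0.17 (SE) higher on average, with an unadjusted p of 0.0773. In 3 of the 19 genes the highest 2 arrays were irradiated mice 1 and 2, against 3.12% of all genes. In 9 of the 19 irradiated mouse 1 was the highest array, against 9.65% of all genes. The difference between these 2 target lists was not tested.

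The interferon genes themselves were dim about as often as genes at large. The mean level of 9 of the 19 measured ligand genes lay below 4.70, the midpoint of all array rows. Of all 22180 genes, 9894 lay below it too. The median difference of the ligand genes was -0.07. Over all genes 2.05% were higher and 4.03% lower at an unadjusted p under 0.05 in limma. Of the 19 ligand genes, 1 was higher and 1 lower at that threshold. These were Ifnl3, an interferon lambda gene, at 6.20 ± 0.37 in irradiated and 5.49 ± 0.46 in sham mice, and Ifna4, an early interferon alpha gene, at 7.24 ± 0.28 and 7.66 ± 0.19 in the irradiated and the sham group (SD, n = 4 each). Both have close paralogs, so their probes may also pick up related genes. Ifnb1 and Ifng were looked at outside the rule for named genes, after their values were seen. Ifnb1, the gene of interferon beta, stood at 3.81, 6.20, 6.91 and 5.58 in irradiated mice 1 to 4 and between 4.62 and 6.05 in sham mice. Its lowest array was irradiated mouse 1, where Irf7 was highest and where Ifnb1 lay below the 4.70 midpoint. Irradiated mouse 2, next highest for Irf7, was also next to highest for Ifnb1. Ifng stood between 4.65 and 5.89 in irradiated mice and at 4.42, 6.89, 7.38 and 4.45 in sham mice, highest in sham mice 2 and 3 with the T and NK cell markers.

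**Figure D4:**
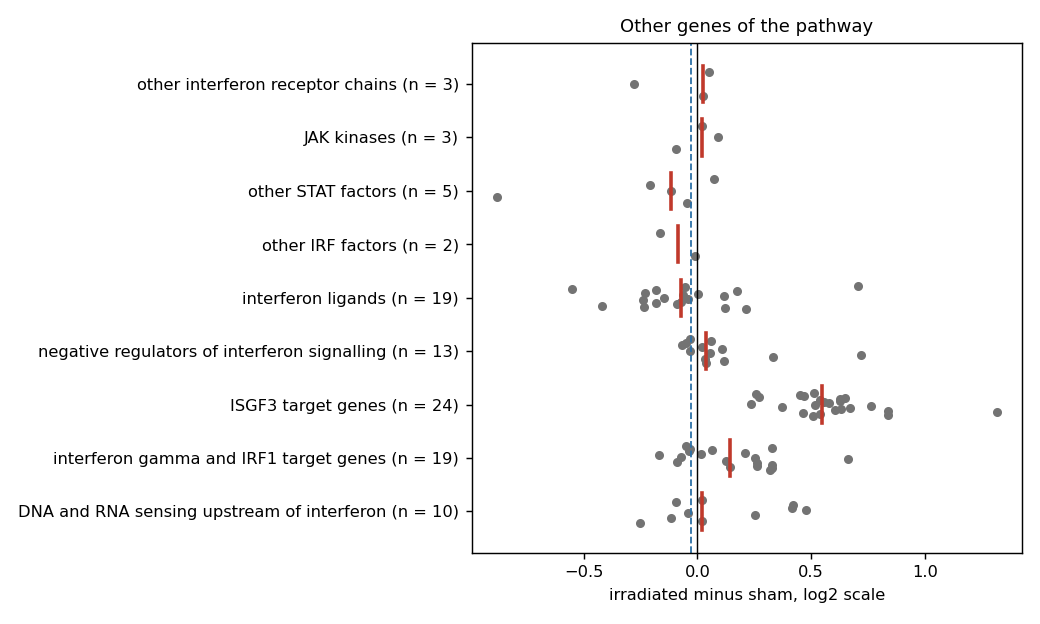
Difference of each measured gene of 9 pathway lists, as log2 level in irradiated minus sham mice (grey points), with list medians (red bars) and the median of all genes (dashed line, -0.03). The 24 ISGF3 targets lie from 0.23 to 1.32, and the median of each other list lies between -0.12 and 0.14.

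Of the remaining factors and regulators, Stat4 stood out. Stat4, which carries interleukin 12 and type I interferon signals in T and NK cells, stood at 7.39, 6.84, 6.84 and 7.36 in irradiated mice 1 to 4 and at 7.61, 8.46, 8.43 and 7.47 in sham mice 1 to 4. The groups did not overlap, as in 3.68% of all genes, and the difference was -0.88 ± 0.25 (SE; adjusted p = 0.819 in limma). Stat4 was highest in sham mice 2 and 3, where the T and NK cell marker means were highest too, and the part of those cells was not tested. The other 4 STAT genes measured, Stat3, Stat5a, Stat5b and Stat6, differed by -0.21 to 0.07, and Irf3 and Irf4 by -0.01 and -0.16. Among 13 negative regulators the median difference was 0.04 and none had an unadjusted p under 0.05. The smallest p were those of Cish, a cytokine-induced SOCS family gene (0.33 ± 0.17, SE), and Usp18, which shuts down the type I receptor and is itself an interferon target. Usp18 stood at 9.12, 8.55, 7.72 and 7.21 in irradiated mice and between 7.12 and 7.92 in sham mice, so that irradiated mice 1 and 2 were again the highest. Among 10 sensing genes upstream of interferon, 1 was higher and 1 lower at an unadjusted p under 0.05 in limma. Over all genes 2.05% were higher and 4.03% lower at that threshold. Tlr3, an endosomal RNA sensor, differed by 0.48 ± 0.17 (SE). Sting1, the adaptor of cytosolic DNA sensing, differed by -0.25 ± 0.11 (SE), with groups that did not overlap, as in 3.68% of all genes. Each had an adjusted p of 0.819 in limma.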

How the data were processed

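From each of 8 mice 25 ng of total RNA was amplified, labelled with biotin and put on an array, per the labels' protocols. RMA and Partek are named in the submitters' processing notes. The range of the deposited values fits a log2 scale. Settings and genome build: not given in the sources used here. Neither is a scan date or batch, so none was modelled. Having 8 arrays limits how precise any value is. Groups and mouse numbers came from the sample titles.

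Of 34365 rows, 23521 had 1 gene symbol in the platform annotation; the row with the highest mean was kept per symbol, which left 22180 genes with no filter on dim ones. The groups were compared over all genes by the two-sided moderated test of limma 3.58.1 (R 4.3.3), Benjamini-Hochberg adjusted and called at 0.05, and each difference is the irradiated mean less the sham mean. This test was tested on simulated data. Exact permutation tests used all 70 assignments of the mice.

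Named beside the 9 genes were all genes of pathway lists with under 8 measured, the 2 with the smallest p of longer lists, and the 2 genes most like each of the 9 that spanned at least 0.8. Genes and lists were chosen with earlier results of these data known. Alternatives were other normalizations, filters, row rules, variance models, weights, a replicate block, a covariate and left-out arrays. Promoters were RefSeq's for GRCm38.p6, used apart from the array values. Plots were drawn with matplotlib 3.10.9.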

Additional observations from a re-analysis of the deposited data

Results flagged for a closer look

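Each gene of the set was checked in each group of 4 mice for a value far from the rest, by setting the gap to the nearest mouse against the range of the group; 1 of the 18 checks exceeded Dixon's 95% limit. Ifnar2 in sham mouse 2, at 10.776 against 10.84 in the nearest sham mouse, had a ratio of 0.85. The range of Ifnar2 over all 8 arrays was 0.16 on the log2 scale, and chance flags about 1 in 20 groups. Ifnar2 in irradiated mouse 2 came next, at 10.92 with a ratio of 0.827.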

How the results depend on the processing

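In all 18 alternatives the 9 genes stayed short of the adjusted threshold (lowest adjusted p 0.709, limma). Irf7, Stat2, Irf2, Ifnar1 and Ifngr1 kept their direction in all 18. Over the fits that lacked 1 array the difference ran from 0.44 to 1.25 for Irf7, 0.23 to 0.74 for Stat2, -0.20 to -0.04 for Irf2, -0.22 to -0.07 for Ifnar1 and -0.37 to -0.22 for Ifngr1. It crossed 0 for Irf1 (-0.1887 to 0.0196), Irf8 (-0.0545 to 0.1713), Irf9 (-0.1278 to 0.1369) and Ifnar2 (-0.046 to 0.0082). The median of the 9 ran from -0.13 to -0.0012 there, and from -0.05 to 0.02 under the other alternatives. Irf9 was also above 0 with quantile normalization (0.0516), array medians subtracted (0.0057), array weights (0.0382), the T and NK marker mean as a covariate (0.10) and without sham mice 2 and 3 (0.0024). Ifnar2 was above 0 with quantile normalization (0.0234) and array medians subtracted (0.0032). Irf8 was below 0 with the mean of its 2 rows (-0.0462), the covariate (-0.0638) and without sham mice 2 and 3 (-0.16). Irf1 was above 0 with the covariate (0.0008) and without sham mice 2 and 3 (0.0033). The causes were not tested. The number of the 9 with an unadjusted p under 0.05 was 1, or 0 with the covariate and without sham mice 2 and 3. With 1 array left out it was 0 to 2: 2 (Stat2 and Irf7) without irradiated mouse 3, and 0 without sham mouse 1, 2 or 4. Without irradiated mouse 4 the 1 gene was Irf7 (unadjusted p = 0.0348 in limma) and not Ifngr1 (0.066). The number of genes past the adjusted threshold was 0, and 1 without irradiated mouse 1. Of the pairs, Irf1 minus Irf2 ran from -0.0559 to 0.1718 with 1 array left out, Stat2 minus Irf9 from 0.25 to 0.63 and Ifnar1 minus Ifnar2 from -0.22 to -0.07. With the mouse number as a replicate block 0 genes passed and 2 of the 9, Ifngr1 and Irf7, had an unadjusted p under 0.05. The 6.07% of all genes under 0.05 belongs to the main fit. No such share is given here for the alternatives, so their counts among the 9 lack a background. Samples with the same number correlated at -0.42 to -0.28 in their deviations from the group means, and none correlated best with its own number, so the numbers were not taken as pairs.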
